A study of Mus musculus with 3 samples.

Results

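Immediate early genes are the first genes that growth factors in serum switch on in a resting fibroblast. Described here are 10 of them, Fos, Fosb, Fosl1, Fosl2, Jun, Junb, Egr1, Ier2, Ier3 and Dusp1, out of 20656 genes that could be named on the arrays. They were chosen by name, and the RefSeq accession of each array probe was matched to a gene symbol, which found 11 probes. Fosl2 had 2 probes and each other gene had 1. The study exposed NIH3T3 cells, an immortalised mouse fibroblast line, to compounds that act on the retinoic acid receptor RARα. One culture had 20 μM AR7, a compound that raises chaperone-mediated autophagy, and another had 20 μM BMS614, a RARα antagonist. The third had no addition (None). All were wild-type cells grown to confluence in DMEM with 10% fetal bovine serum and antibiotics, and were collected after 24 h. The serum is fetal bovine in the labels, while the methods of the study name newborn calf serum for its cell cultures. The compounds were dissolved in DMSO, and the labels do not say whether the None culture received it. The labels name no withdrawal or renewed addition of serum, so the values are levels at 24 h with serum present, not a response to serum.

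RNA was labelled with Cy3 and hybridized to one-colour Agilent arrays, with 1 array per condition, so there is no replicate check and no test between conditions. Values are log2 RMA signals, that is spot intensities after background correction and quantile normalization, and the signals of different probes are not compared with each other. The error given is the SD of the difference between 2 arrays over repeated spots of one probe at the same signal, read from 266 probes printed 10 times. It covers the error of spots on a slide that all 3 arrays share, and not the variation between cultures. The 75th percentile of the spot intensity ran from 692 to 909 over the arrays before normalization, and 55.4% to 61.8% of 55681 probes were well above background. All 8 fibroblast markers looked for, among them Col1a1, Vim and Pdgfrb, were well above background on all 3 arrays. Epcam (epithelium), Tek (endothelium) and Alb and Apoa1 (liver) were so on none. Of the other markers, all 3 neuronal ones (Snap25, Rbfox3 and Syp), 3 of 4 epithelial ones, 1 of 3 blood ones with a named probe and 1 of 3 endothelial ones were well above background on all 3 arrays.

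Growth factor receptors at the cell surface act through Ras and the ERK kinases on transcription factors that are already present, chiefly serum response factor (SRF) with its partner Elk1 and the cyclic AMP response element binding protein. These switch on the immediate early genes without new protein synthesis, and the messenger RNAs are short-lived. Fos, Fosb, Fosl1 and Fosl2 encode the Fos family of leucine zipper proteins, which pair with Jun or Junb to form the transcription factor AP-1. Egr1 encodes a zinc finger transcription factor. Ier2 encodes a nuclear protein, Ier3 a protein that influences cell survival and ERK signalling, and Dusp1 a phosphatase that removes phosphate from MAP kinases and so limits the signal. Retinoic acid receptors are known to restrain AP-1.

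The bases before the start of 3 of these genes are shown because Ier3 had the widest differences between arrays, Fos is the founding member, and Dusp1 holds a complete cyclic AMP response element. They are the 250 bases before the start as RefSeq places it on the assembly GRCm38.p6, read 5′ to 3′ on the strand of the gene. Ier3 lies at chr17:35821463-35821712 (plus strand), Fos at chr12:85473640-85473889 (plus strand) and Dusp1 at chr17:26508473-26508722 (minus strand). Capitals mark matches to the motifs searched, named after the sequences.
Ier3: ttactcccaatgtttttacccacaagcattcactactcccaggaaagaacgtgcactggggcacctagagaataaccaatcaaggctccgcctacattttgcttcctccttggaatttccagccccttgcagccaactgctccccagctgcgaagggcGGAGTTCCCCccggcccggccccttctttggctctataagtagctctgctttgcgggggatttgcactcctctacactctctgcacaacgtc
Fos: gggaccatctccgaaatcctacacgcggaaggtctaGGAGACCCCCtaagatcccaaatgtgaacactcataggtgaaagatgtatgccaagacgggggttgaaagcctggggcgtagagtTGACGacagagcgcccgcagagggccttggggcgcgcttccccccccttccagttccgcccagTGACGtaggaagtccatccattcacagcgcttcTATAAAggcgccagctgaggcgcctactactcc
Dusp1: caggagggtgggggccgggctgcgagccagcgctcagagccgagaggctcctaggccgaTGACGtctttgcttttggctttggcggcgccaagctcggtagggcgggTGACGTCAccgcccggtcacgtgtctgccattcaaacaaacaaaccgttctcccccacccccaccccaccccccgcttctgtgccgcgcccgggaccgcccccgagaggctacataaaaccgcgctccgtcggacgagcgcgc

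Both strands were searched for the AP-1 site TGANTCA, the cyclic AMP response element TGACGTCA, its part TGACG, which the whole element holds on both strands, the variant AP-1 site TGACATCA, the TATA box TATAAA, the CArG box that SRF binds and the kappaB motif. The windows of 7 of the 10 genes were matched. Fosl1, Ier2 and Egr1 were not. In Dusp1, TGACGTCA lay 143 to 136 bases before the start, a motif in 1.55% of the 32851 windows of all genes. TGACG was in the windows of Fos, Fosb, Junb and Dusp1, and in 17.8% of all windows. In Fos it lay at 129 to 125 and at 66 to 62 bases, upstream of TATAAA at 33 to 28 bases, which is in 12.4% of all windows. The kappaB motif was in the windows of Ier3, Fos, Fosb and Fosl2 and in 5.93% of all windows, and in Ier3 it lay 92 to 83 bases before the start. TGACATCA was in the window of Jun and in 2.93% of all. TGANTCA and the CArG box, in 6.75% and 1.47% of all windows, were in none of the 7 windows. Bases farther upstream or past the start were not searched, so whether these genes hold such sites there was not tested. Nor was it tested for Fosl1, Ier2 and Egr1, whose windows were not matched. A match is a run of letters and not a measured site.

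All 11 probes were well above background and below saturation on all 3 arrays. None of them differed 2-fold or 1.5-fold between any 2 arrays. Between AR7 and None, 1.62% of the 33347 probes that could be compared differed at least 2-fold and 6.47% at least 1.5-fold. For BMS614 and None the shares were 1.81% and 7.19%, and for AR7 and BMS614 they were 1.65% and 7.38%. Between AR7 and None, 4 of the 11 probes differed by more than 2 SD of repeated spots, against 17.9% of the 30289 probes that passed the background filter on every array. Ier3 and Fosl1 were the higher ones, and Fos and the dimmer Fosl2 probe the lower ones. Between BMS614 and None there were also 4, against 26.0% of all probes, with Dusp1 higher and Fosl1, Junb and Ier2 lower. Fos, at -0.21 with AR7, was counted by the SD for its 10 spots, 0.07. A probe of 1 spot at its signal has an SD of 0.22. Over the 10 genes, the median log2 difference was -0.03 for AR7 and -0.01 for BMS614, with 5 genes higher and 5 lower for each. The medians over all 13802 named genes that passed this filter were -0.01 and 0.00. The None array is shared by these comparisons.

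**Figure D1:**
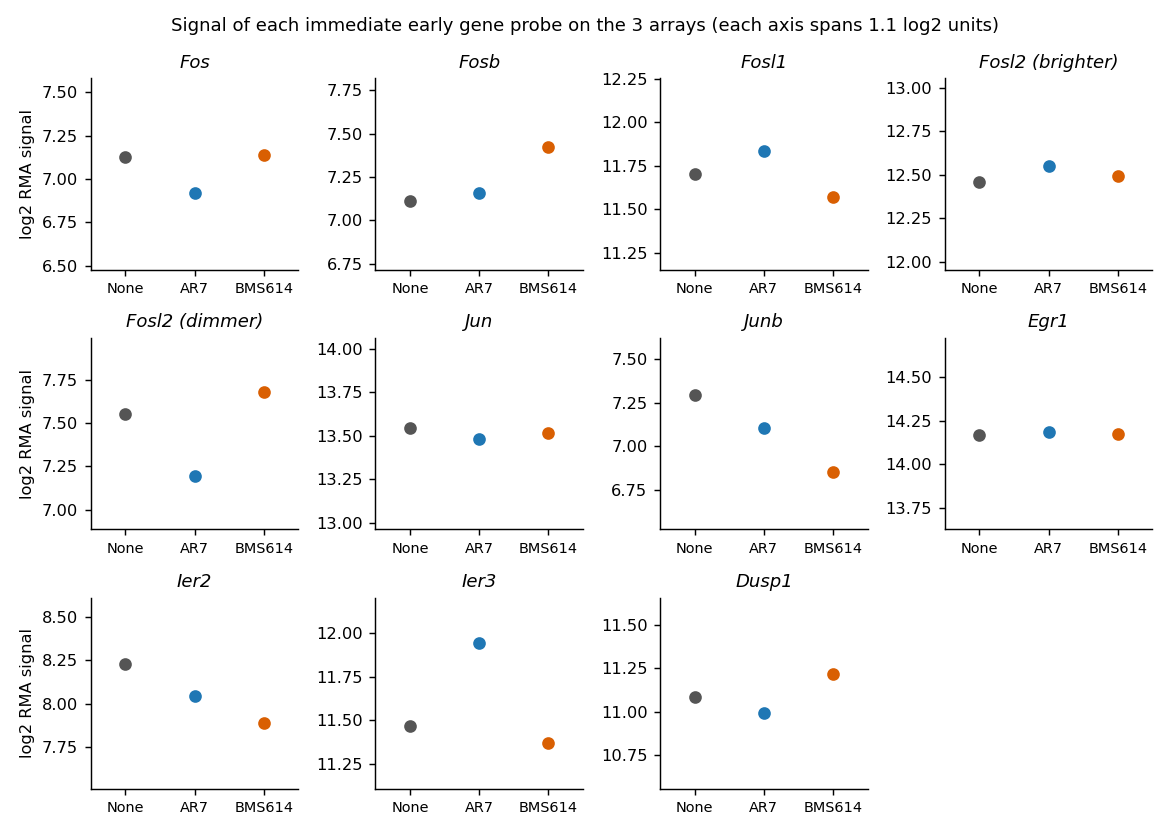
Log2 RMA signal (vertical axis) of each of the 11 probes on the None, AR7 and BMS614 arrays (horizontal axis), 1 point per array, with axes of equal width in all panels. The AR7 point of Ier3 stands above the other arrays, while the points of Egr1 and Jun lie nearly level.

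Ier3 had the widest spread of the 10 genes. Its log2 signal was 11.47 on the None array, 11.94 with AR7 and 11.37 with BMS614. The AR7 array was thus the high one, and None and BMS614 lay close together. Before any normalization the spot read 2574 with None, 3979 with AR7 and 3251 with BMS614, while the 75th percentile of all spots was 692, 780.5 and 909. AR7 stood above None by 0.48 (1.39-fold), where repeated spots of such a signal had an SD of 0.06. Of 4972 probes within 1 log2 unit of its signal, 14 (0.282%) differed as far between these arrays, Ier3 included. Counted from the highest difference of AR7 from None, it stood at place 229 of 13802 named genes. With BMS614 it differed from None by -0.10 (SD 0.05). Ier3 has 1 probe with 1 spot on each array, so no other spot or probe of the gene could be set beside it. Over 5 other ways of processing the arrays, the difference of AR7 from None ran from 0.45 to 0.48.

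**Figure D2:**
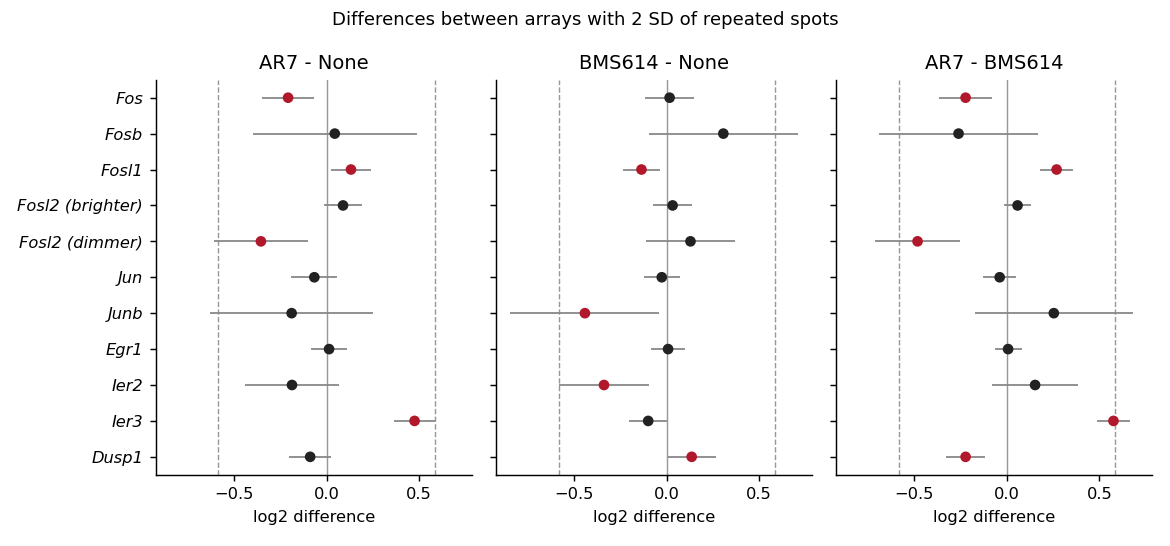
Log2 differences (horizontal axis) between AR7 and None, BMS614 and None, and AR7 and BMS614 for each probe (vertical axis). Bars reach 2 SD of repeated spots on each side, red points lie past 2 SD, and dashed lines mark 1.5-fold. Ier3 lies farthest from 0, at 0.48 in the first panel and 0.58 in the third.

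In the Fos family, no member differed by more than 0.48 on the log2 scale between any 2 arrays. Fos, the founding member, is printed on 10 spots of each array. Its mean log2 signal was 7.12 ± 0.16 (SD, 10 spots) with None, 6.92 ± 0.16 (SD, 10 spots) with AR7 and 7.14 ± 0.09 (SD, 9 spots) with BMS614. The spots ran from 6.92 to 7.38 with None, from 6.65 to 7.15 with AR7 and from 6.99 to 7.29 with BMS614, so the ranges overlap. Set against the same positions on the None array, the AR7 spots were lower at 9 of 10, by -0.21 on average with an SE of 0.06 over spots. Against BMS614 they were lower at 9 of 9, by -0.19 with an SE of 0.05. The BMS614 spots were higher than None at 5 and lower at 4. Among probes of like signal, most with 1 spot, 37.8% of 7467 differed as far as Fos between AR7 and None. The 10 spots share 1 RNA sample per condition and are not replicates of it. Processed otherwise, the difference of AR7 from None ran from -0.17 to -0.06. It was no longer past 2 SD under the normexp background (-0.12), from the scanner's processed signal (-0.07) and in the deposited value table (-0.06). Under normexp (-0.13) and in that table (-0.12) the difference of AR7 from BMS614 was not past 2 SD either. The SD in these checks, here and for the other genes, was that of the RMA values. Whether the differences pass an SD on the scale of each alternative was not tested.

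Fosl1, which encodes Fra-1, differed in opposite directions from None with the 2 compounds. Its log2 signal was 11.70 with None, 11.84 with AR7 and 11.57 with BMS614. The AR7 difference was 0.13 (SD 0.06) and the BMS614 difference was -0.14 (SD 0.05), both past 2 SD. From the scanner's processed signal they were 0.11 and -0.21, and they were 0.09 and -0.18 in the deposited table, with the AR7 difference within 2 SD in both cases. AR7 exceeded BMS614 by 0.27 (1.20-fold, SD 0.05). Fosb read 7.11 with None, 7.16 with AR7 and 7.42 with BMS614. Its highest difference, of BMS614 from None, was 0.31 (1.24-fold) and lay within 2 SD, since at this low signal the SD was 0.20.

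The probes of Fosl2, which encodes Fra-2, did not move alike. The brighter one read 12.46 with None, 12.55 with AR7 and 12.49 with BMS614, and its differences from None were 0.09 and 0.03, within 2 SD of 0.05 each. The dimmer one read 7.55, 7.20 and 7.68 on the same arrays. With AR7 it was the low one, by -0.35 against None (SD 0.13) and by -0.48 against BMS614 (SD 0.12). As the mean of both probes, the AR7 difference of Fosl2 from None was -0.13, opposite in sign to that of the brighter probe alone. Both probes are assigned to one RefSeq transcript.

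**Figure D3:**
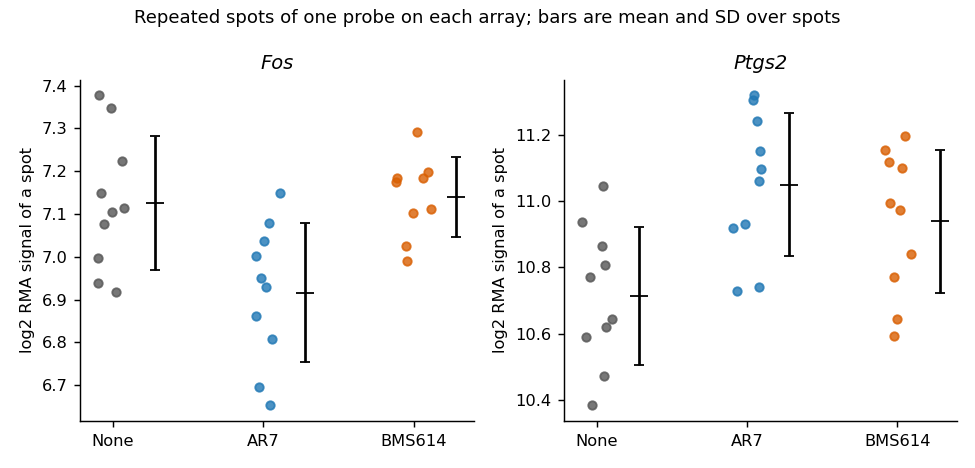
Log2 RMA signal (vertical axis) of the repeated spots of Fos and of Ptgs2 on each array (horizontal axis), 1 point per spot, with the mean and SD over spots at the side. Fos spots were lower with AR7 than at the same position with None at 9 of 10, and Ptgs2 spots were higher at 10 of 10, though the ranges of the arrays overlap.

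In the Jun family, Jun, the partner that the Fos proteins most often take, was nearly level. It read 13.54 with None, 13.48 with AR7 and 13.52 with BMS614. The differences from None were -0.07 and -0.03, against an SD of 0.06 and 0.05. Junb read 7.29 with None, 7.10 with AR7 and 6.85 with BMS614, so that BMS614 was the low one. It differed from None by -0.44 with BMS614 (1.36-fold lower), where the SD at its low signal was 0.20, and by -0.19 with AR7 (SD 0.22). Of 7440 probes of like signal, 12.5% differed as far as Junb between BMS614 and None. Under the 5 other ways of processing, the BMS614 difference ran from -0.40 to -0.27, within 2 SD under each of them.

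Egr1, the zinc finger factor, had the narrowest spread. It read 14.17 with None, 14.18 with AR7 and 14.18 with BMS614, and its differences from None of 0.01 for each were within 1 SD of 0.05. Ier2 read 8.23 with None, 8.04 with AR7 and 7.89 with BMS614, and None was the high one. The BMS614 difference of -0.34 (1.27-fold lower, SD 0.12) was past 2 SD and the AR7 difference of -0.19 (SD 0.13) was not. As many as 11.9% of the 6664 probes of like signal differed as far as Ier2 between BMS614 and None. Dusp1, the MAP kinase phosphatase, read 11.08 with None, 11.00 with AR7 and 11.22 with BMS614. It lay on opposite sides of None, at -0.09 with AR7 (SD 0.06) and 0.13 with BMS614 (SD 0.06), the latter just past 2 SD. That BMS614 difference was within 2 SD from the scanner's processed signal (0.09), under normexp (0.13) and in the deposited table (0.12).

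The 2 compounds were given at the same concentration and time, and their arrays can be set against each other without the None array. Past 2 SD of repeated spots were 5 of the 11 probes, against 25.4% of all probes, and the median difference over the 10 genes was 0.03. AR7 was higher than BMS614 in Ier3, by 0.58 (1.49-fold, SD 0.05), and in Fosl1. It was lower in Dusp1, by -0.22 (1.17-fold, SD 0.05), in Fos, and in the dimmer Fosl2 probe. Fos, at -0.22, was again counted by the SD for its 10 spots, 0.07, where a probe of 1 spot has 0.21. Of the 4972 probes with a signal like that of Ier3, 20 (0.402%) differed as far between AR7 and BMS614. For Fosl1 that share was 3.94% of 4898 probes, and for Dusp1 7.60% of 5264. For Egr1, Jun and the brighter Fosl2 probe the compounds differed by 0.01, -0.04 and 0.06, each within 2 SD.

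**Figure D4:**
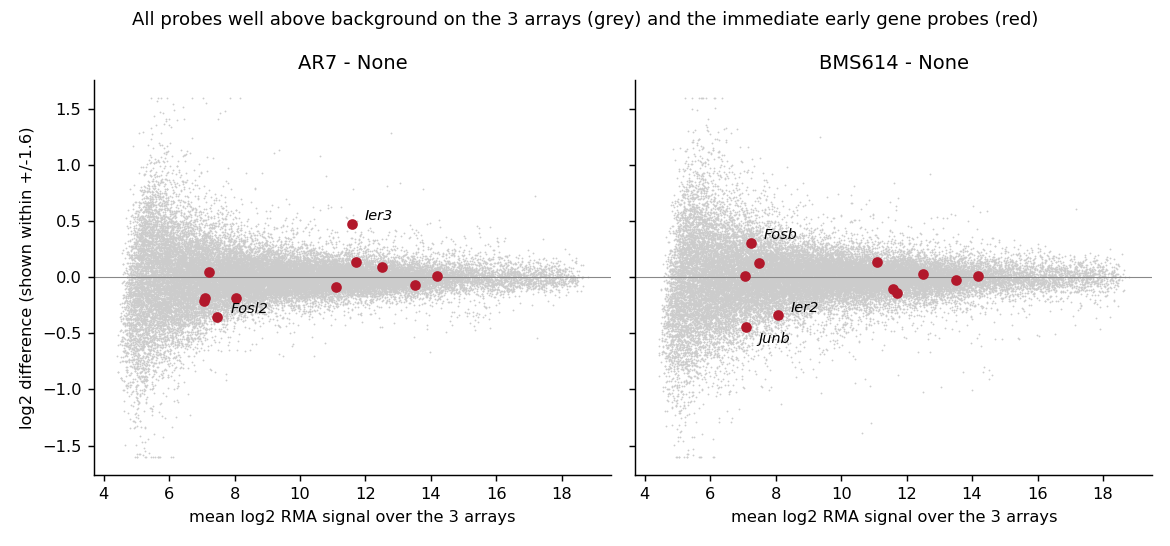
Log2 difference from None (vertical axis) against the mean log2 RMA signal over the 3 arrays (horizontal axis) with AR7 and with BMS614. Grey points are the 30289 probes that passed the background filter on every array, and red points the 11 immediate early gene probes, of which Ier3 stands at the edge of the grey points with AR7, at 0.48.

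Other immediate early genes were read through a list of 43, of which 38 were well above background on all 3 arrays. With AR7, 6 were higher than None and 6 lower past 2 SD of repeated spots, that is 31.6% of the 38 against 18.9% of all named genes. With BMS614 there were 7 and 5, again 31.6%, against 26.3% of all named genes. The medians over the 38 were -0.02 for each compound. No gene of the 38 differed 1.5-fold from None. Nr4a3 and Atf3 were not well above background on any of the arrays. Egr3 was so with None (5.09) and AR7 (5.44) but not with BMS614 (4.43), which leaves a bound of -0.66 for that difference.

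Ptgs2, which encodes the prostaglandin synthase COX-2, had the highest difference of AR7 from None among the 38 genes and is printed on 10 spots of each array. Its mean log2 signal was 10.71 ± 0.21 (SD, 10 spots) with None, 11.05 ± 0.22 (SD, 10 spots) with AR7 and 10.94 ± 0.22 (SD, 10 spots) with BMS614. Position by position, AR7 was higher than None at 10 of 10 spots, by 0.34 with an SE of 0.02 over spots. BMS614 was also higher than None at 10 of 10, by 0.23 with an SE of 0.02. AR7 was higher than BMS614 at 10 of 10, by 0.11 with an SE of 0.01. The spread of spots on one array was thus wider than that of the differences at matched positions. The other genes higher with AR7 past 2 SD were Maff (0.26), Plk2 (0.25), Plk3 (0.20), Ccn1 (0.17) and Zfp36l2 (0.15). Lowest with AR7 among the 38 was Klf2, a Krüppel-like transcription factor, at -0.24 (SD 0.08), and Klf10 was at -0.20. With BMS614, Ccn2, which encodes a secreted matrix protein, was highest, at 0.29 (SD 0.07), and its relative Ccn1 was at 0.23. Ier5 was lowest of the 38 with BMS614, at -0.28 (SD 0.07), although its other probe was at 0.07.

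A further list held 10 leucine zipper proteins, some of which can pair with the Fos and Jun families. Of these 10, 9 had a named probe and 8 were well above background on all arrays. None of the 8 passed 2 SD with AR7, against 18.9% of all named genes, and Mafg was highest (0.08) and Jdp2 lowest (-0.07). With BMS614, 7 of the 8 were below None and 4 of them past 2 SD, namely Mafk (-0.19), Jdp2 (-0.15), Mafg (-0.14) and Atf2 (-0.13). Of all named genes, 26.3% were past 2 SD with BMS614 in either direction. Creb1 was the higher one, at 0.12 (SD 0.10), with its other probe at -0.29. The list median with BMS614 was -0.13, against 0.00 over all named genes. The other probes of Atf2 ran from -0.17 to 0.57 with BMS614, and those of Mafg were at -0.23 and -0.30.

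SRF itself, read on its brighter probe, was at 0.01 with AR7 and -0.11 with BMS614 against None, the latter just past 2 SD, and its other probe was at -0.03 and -0.02. The list of SRF and its cofactors held 7 genes, of which 6 were well above background on all arrays. Past 2 SD with AR7 was 1 higher gene, 16.7% of the 6 against 18.9% of all named genes. With BMS614 there were 1 higher and 2 lower genes, 50% of the 6 against 26.3%. Of the partners of SRF, Elk4 was at 0.14 with AR7 (SD 0.13) and -0.25 with BMS614 (SD 0.12). The other probes of Elk4 were at 0.02 and -0.46 with BMS614. Elk1 was at -0.07 with each compound, and its other probe at -0.34 with AR7 and -0.14 with BMS614. Mrtfb, an actin-regulated cofactor of SRF, was at 0.13 with AR7 and 0.22 with BMS614 (SD 0.05 for each). Its other probes were higher than None with both compounds, at 0.62 and 0.21 with AR7 and at 0.25 and 0.33 with BMS614.

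Upstream of SRF, 30 receptors, Ras proteins and kinases were looked for, and 29 were well above background on all arrays. With AR7, 4 were higher and 1 lower past 2 SD, together 17.2% of the 29 against 18.9% of all named genes. The higher ones were Sos2 (0.29), a Ras activator, Igf1r (0.24), the receptor of insulin-like growth factor, the kinase Mapkapk2 (0.18) and the receptor Fgfr1 (0.11). The lower one was the receptor Pdgfra, at -0.07 with an SD of 0.02. A probe of 1 spot at its signal has an SD of 0.06. With BMS614, 9 were higher and 7 lower, together 55.2% of the 29 against 26.3% of all named genes. Ksr1, an ERK scaffold, was highest, at 0.42 (SD 0.20), with its other probe at 0.00. Map2k7, an upstream kinase of JNK, was the only one of the 29 at least 1.5-fold from None, and only with BMS614, at -0.94 (SD 0.33). With AR7 it was the lowest, at -0.55 (SD 0.39). Its probe is dim, at a log2 signal of 4.64 averaged over the arrays. Mapk8 was highest with AR7, at 0.33 (SD 0.39), on another dim probe, and its other probes were at -0.27 and 0.40.

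**Figure D5:**
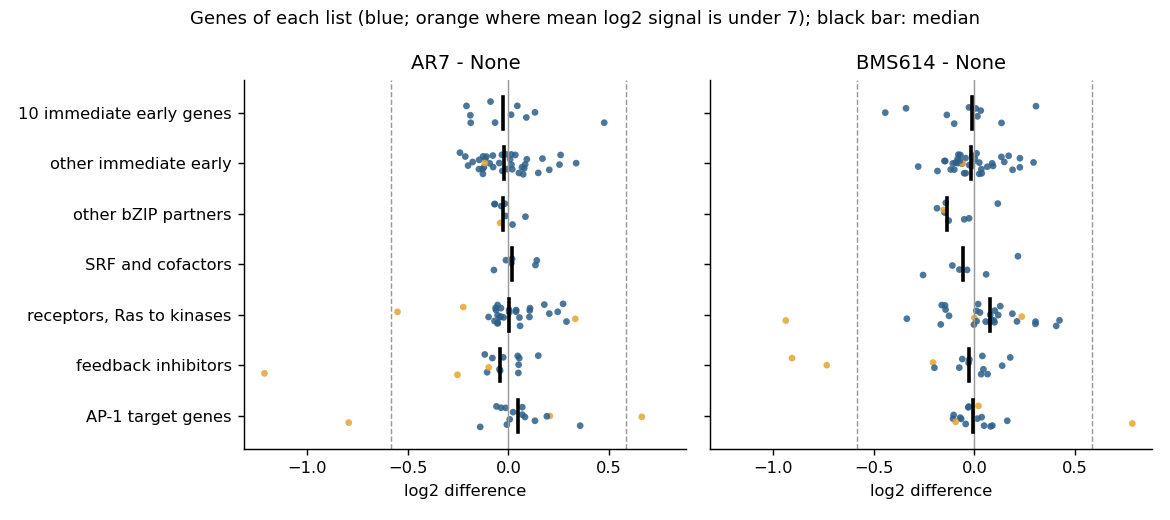
Log2 difference from None (horizontal axis) with AR7 and with BMS614 for the genes of each list (vertical axis) well above background on all 3 arrays, 1 point per gene, with the median as a black bar. Orange points have a mean log2 signal under 7, and the points beyond the dashed lines at 1.5-fold are all of these.

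Feedback inhibitors of the pathway, other phosphatases and the Sprouty and Spred proteins were read through 17 genes, of which 14 were well above background on all arrays. The list medians were -0.04 with AR7 and -0.03 with BMS614. Past 2 SD with AR7 was 1 lower gene, 7.14% of the 14 against 18.9% of all named genes. With BMS614 there were 1 higher and 3 lower genes, 28.6% of the 14 against 26.3%. The higher one was Rasa1 (0.14, SD 0.07), and Nf1 (-0.20, SD 0.05) was among the lower ones. Dusp2, Dusp5 and Spry1 were well above background on none. Dusp6, the ERK phosphatase whose level follows ERK activity in many cells, was within 2 SD of None with both compounds. Spred3 was at -1.21 with AR7 (SD 0.39) and -0.90 with BMS614 (SD 0.33), and Spry4 at -0.73 with BMS614 (SD 0.33), and both probes are dim, averaging 4.99 and 5.33 over the arrays. Highest were Dusp4 with AR7 (0.15, SD 0.13) and Dusp8 with BMS614 (0.18, SD 0.10), both within 2 SD, and the other probe of Dusp8 was at -0.11 with BMS614.

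Genes that AP-1 is known to activate were read through a list of 20, of which 16 passed the background filter on every array. The median was 0.07 with AR7 and -0.01 with BMS614 over the genes with a measured difference or a bound, and 0.05 and -0.01 over the 16. Past 2 SD with AR7 were 3 higher genes and 2 lower ones, or 31.2% of the 16 against 18.9% of all named genes. With BMS614 there were also 3 higher and 2 lower, against 26.3% of all named genes. The 3 higher with AR7 were Hmox1, Hmga2 and Cd44. Hmox1, the haem oxygenase, was higher by 0.36 (SD 0.06) with AR7, and its other probe was at 0.42. Hmga2 was at 0.19 with AR7, with its other probe at 0.03. Cd44 was at 0.13 with AR7, while its other probes ran from -0.92 to 0.34. With BMS614, Hmox1, Hmga2 and Cd44 were at 0.05, 0.08 and 0.01, each within 2 SD. Spp1, which encodes osteopontin, was at -0.14 with AR7 and 0.16 with BMS614, and Il6 was at -0.79 with AR7 on a dim probe (SD 0.28). Lor, which encodes loricrin of the epidermis, was at 0.66 with AR7 and 0.78 with BMS614 on a dim probe (SD 0.39 and 0.33). The collagenase gene Mmp13 and the stromelysin gene Mmp3, AP-1 targets by which the pathway is often followed, were well above background on none of the arrays. Lowest with BMS614 was Plaur, the urokinase receptor, at -0.11 (SD 0.05).

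The 5 genes whose levels over the 3 arrays lay nearest to those of Ier3, by the distance between log2 values centred on their mean, were Ces2c, Dlx4os, Lmod3, Cfap53 and Magel2, among 13802 named genes. Their AR7 differences from None ran from 0.44 (Dlx4os) to 0.53 (Magel2). Ces2c had a distance of 0.01 from Ier3, yet its other probes were at -0.74 and -0.70 with AR7. The probes of all 5 were dimmer than that of Ier3, averaging 4.91 (Dlx4os) to 7.37 (Magel2) on the log2 scale, where the SD of repeated spots is wider than at the signal of Ier3.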

How the data were processed

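Total RNA of NIH3T3 cells was hybridized to Agilent mouse arrays, 1 array each for None, AR7 and BMS614. The authors deposited the intensity of each spot from Agilent Feature Extraction 10.7.3.1, with no normalization across arrays. They also deposited a value table, again intensity on a linear scale. Its values are proportional to the background-subtracted signal apart from a constant, although the methods and the submitters' processing notes name RMA with the oligo package, and the table was used as an alternative only. Log2 values were computed here after the methods, without oligo, from the median pixel intensity by the RMA convolution background and quantile normalization (R 4.3.3, limma 3.58.1, Python 3.11.15, pandas 2.3.3), leaving out control spots and spots marked as outliers. A probe is the mean of its spots, and a gene its brightest probe. Probes were named by RefSeq accession (27229 of 55681) through a table of GRCm38.p6. The SD of repeated spots was taken in 10 bins of signal and divided by the square root of the spots of a probe. In counts over all probes, a probe dim on 1 of 2 arrays enters by a bound against the higher of its own signal and the lowest signal well above background there.

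With 1 array per condition no test was made, and the number of arrays limits the precision. The counts of calls were checked on simulated data with known changes. The members and gene lists were chosen with earlier results of these data known. Named are the members, the list genes at least 1.5-fold from None, the largest rise and fall of each list, and the 5 genes nearest in pattern to the widest member. Other named list genes were chosen after their values were seen. Alternatives were the scanner's processed signal with 75th percentile scaling, normexp with an offset of 50, the RMA background with 75th percentile or spike-in scaling, the deposited table with values below 16 set to 16, averaging the probes of a gene, fold thresholds of 1.5 and 3, and other filters on dim probes.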

Additional observations from a re-analysis of the deposited data

How the results depend on the processing

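No paired analysis was possible because the conditions had 1 array apiece. For the same reason no array could be left out, and as all lie on one slide, the slide could not be a block. The count of member probes at least 2-fold apart was 0 in each of the 3 comparisons, and 0 under the 9 alternatives tried for it. Of these alternatives, the 3-fold threshold could give no other count. Nor could the filters on dim probes, since all 11 probes were well above background on all 3 arrays. Of the differences of single member genes under the alternatives, 168 moved by less than 1 SD of repeated spots and 12 by more, where averaging probes changes nothing for a gene with 1 probe. The SD was that of the RMA values throughout and was not recomputed. Differences past 2 SD were within it under at least 1 alternative for Fos with AR7 against None and BMS614. The same held for Fosl1 with AR7 and for Junb and Dusp1 with BMS614, each against None. The sign was opposite under at least 1 alternative only for Egr1, whose differences ran from -0.03 to 0.02, and for Fosl2, which was at -0.13 for AR7 against None and -0.21 for AR7 against BMS614 as the mean over both probes. Spike-in scaling moved the median of all named genes by 0.14 for AR7 and 0.31 for BMS614 against None and by -0.17 between the compounds, and values under it are relative to these. The cause of the following moves was not tested. The median of the AP-1 target genes with AR7, 0.07, became 0.0118 with the processed signal, -0.0047 in the deposited table and 0.0064 as the mean over all probes. With BMS614, the same median went from -0.0068 to -0.0637 with 75th percentile scaling of the RMA values, to -0.0628 with scaling on the spike-ins and to -0.0636 in the table of the authors. The median of the receptors, Ras proteins and kinases with BMS614, 0.08, became 0.0110 as the mean over all probes. The other medians of the members and lists moved by less than 1 SD. Member probes with 1 spot and a low signal, Fosb, Junb, Ier2 and the dimmer Fosl2 probe, have the widest SD and limit what can be read.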
